A study of Mus musculus with 10 samples.

Results

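Microglia and complement genes were examined at the level of chromatin in the explanted retina. The 10 genes taken were Cx3cr1, Csf1r, P2ry12, Tmem119, Aif1, Spi1, C1qa, C1qb, C1qc and C3, and every peak that the deposited table assigned to one of these symbols was used, whether it lay in a promoter or not. Peaks were assigned to 7 of the 10 genes, and these 7 held 23 of the 108253 peaks in the table. C1qc, Aif1 and Tmem119 had no peak at all.

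The libraries were made by CUT&Tag, in which an antibody directs a transposase to a modified histone so that the sequenced fragments mark where the modification sits. Retinas of wild-type C57BL/6J mice at postnatal day 28 were freed of the sclera and pigment epithelium, kept for 48 hours in Neurobasal-A medium with B27 and N2 supplements and either 5 mM or 25 mM glucose, and dissociated, and 500000 cells entered each assay. Lactylation of histone H3 at lysine 18 (H3K18La) was profiled in 3 libraries per glucose level and acetylation at lysine 27 (H3K27Ac) in 2, all in batch 1 according to the labels. The study calls its replicates biological, and the number of animals behind each library is not given in the sources used here. The p-values measure the spread between these libraries. The 108253 regions match in number the study's merged H3K18La consensus peaks of developing retina. Whether they were also called in these explants, or for H3K27Ac, is not given in the sources used here. Having or lacking a peak is therefore not by itself a measure of either mark in the explants.

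Microglia are the resident macrophages of the retina. They depend on signalling through the receptor Csf1r and on the transcription factor PU.1, encoded by Spi1, and they read fractalkine from neurons through Cx3cr1 and nucleotides through P2ry12. Tmem119 and Aif1 (also called Iba1) are widely used to recognise them. C1qa, C1qb and C1qc encode the chains of C1q, which starts the classical complement pathway and is made in the nervous system mainly by microglia, and C3 encodes the central component on which the complement pathways converge. H3K27Ac is a mark of active promoters and enhancers, and H3K18La has been linked to glycolysis. In a profile of whole retina, fewer cells of a type and less of a mark per cell cannot be told apart.

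The values are RPKM, which are reads scaled by the authors to the length of the peak and to a total for the library. Those totals ranged from 1358008 to 7424470 reads. The share that fell in peaks differed with glucose. For H3K18La it was close to 12% throughout at the lower level and between 31.2% and 35.0% at the higher. For H3K27Ac it was 21.1% and 31.5% at 5 mM, and 69.5% and 56.5% at the higher level. The values of the whole table were shifted too. The median log2 change over the 25400 gene symbols with a peak was 0.69 for H3K18La and 0.70 for H3K27Ac, and it became 0.10 and 0.11 when each library was centred on its median and -0.20 and -0.24 when the reads in peaks served as the total of each. The 23 peaks were thinly covered. Together they held 35 to 113 reads in a H3K18La library at 5 mM, 95 to 190 at 25 mM, 100 to 206 in a H3K27Ac library at 5 mM and 331 to 364 at 25 mM, and 11 of their 69 values in H3K18La at 5 mM were 0. A value of 0 reads allows up to 3. The reads carry no molecular identifiers, so intervals and floors given here cover counting error only.

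The microglia and complement genes had few promoter peaks. Peaks are numbered here along the chromosome within each gene, and all coordinates are GRCm38. The single promoter peak was C1qa peak 1 (chr4:136897562-136898955), which lies over the transcription start site and an exon of C1qa. One promoter peak in 23 is 4.35%, beside 15.8% of all peaks. Counted by gene, 10% of the 10 genes had a promoter peak, while 53.7% of 21755 protein-coding genes did, although the share with a peak of any class was much the same (70% against 68.4%). A list of 36 other microglia genes, including Trem2 and Tyrobp, had a peak in 26 cases and a promoter peak in 11. The list also holds genes not confined to microglia, and Mef2c, Tgfbr1, Runx1, Lyn and Rgs10 are among the 11. Of 36 other complement genes, 19 had a peak and 11 a promoter peak. Markers of blood cells, border macrophages and vessels had a peak at 11 of 22 genes and a promoter peak at 5. Genes of the more abundant retinal cells were covered more often, with a promoter peak at 14 of 18 Muller glia genes and at 17 of 18 rod genes. Genes of signalling between retinal cells and microglia, mostly ligands such as Csf1 and Cx3cl1 but with the Cd47 receptor Sirpa and the ectoenzyme gene Entpd1 among them, had a promoter peak at 7 of 9.

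**Figure D1:**
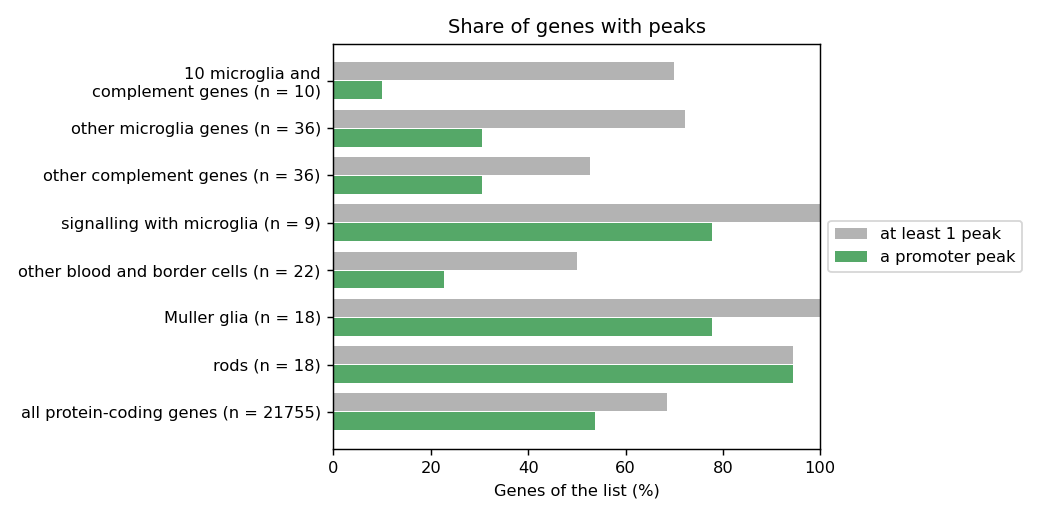
Percentage of the genes of each list with at least 1 peak (grey bars) and with a promoter peak (green bars), with the number of genes in each list in brackets. The 10 microglia and complement genes reach 70% for any peak and 10% for a promoter peak, beside 68.4% and 53.7% of all protein-coding genes.

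Where the assigned peaks lay differed from gene to gene. Distances are given to the outermost annotated start site of each gene. Of the 23 peaks, 12 were inside the annotated bounds of their own gene and 17 had that gene's start site as the nearest coding start site. By class, 11 were distal intergenic, 8 intronic, 2 exonic and 1 in a 3′ UTR, besides the promoter peak. Spi1 came close to having a promoter peak, because Spi1 peak 1 (chr2:91082965-91083780) begins in the gene 575 bp past the start site and the promoter class ends at 500 bp. Spi1 peak 2 (chr2:91087592-91088192) is intronic, 5202 bp into the gene, and peak 3 (chr2:91114972-91115605) covers the 3′ UTR at the far end, where the nearest coding start site, 2539 bp away, is that of Mybpc3. For Csf1r, peak 1 (chr18:61090780-61092222) lies 8376 bp upstream of the gene, and peaks 2 (chr18:61106748-61107216) and 3 (chr18:61107635-61108848) are intronic, 6150 and 7037 bp from the start site of the gene's outermost transcript. The deposited annotation measures peaks 2 and 3 from a start site further inside Csf1r, at 1176 and 2063 bp. C3 peak 1 (chr17:57214847-57215632) covers an exon, and C3 peak 2 (chr17:57232524-57233500) lies 4388 bp upstream.

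Cx3cr1 and P2ry12 carry peaks whose assignment is less secure. The 4 peaks of Cx3cr1 lie within a long annotated isoform, 3 of them classed as intronic and peak 2 as exonic, 41711 to 98748 bp from the start site of the gene, and none of the 4 has Cx3cr1 as its nearest coding start site. Peak 1 (chr9:119970295-119971131) is nearest to Csrnp1, and peaks 2 (chr9:120010816-120011687), 3 (chr9:120020658-120022122) and 4 (chr9:120027404-120028168) are nearest to Xirp1, a gene known from striated muscle. Peak 2 overlaps an exon of the long non-coding RNA Gm49427, and peak 3 an intron of Xirp1, with the Xirp1 start site 1476 bp away. The peak nearest to the Cx3cr1 start site was 28766 bp away and was assigned to Gm47050. P2ry12 had 1 peak (chr3:59225659-59226952), in an intron 35919 bp from the start site and inside Med12l, with P2ry13 as the nearest coding start site.

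For the genes without a peak, the nearest one was not far off. C1qc sits between C1qb and C1qa, and the nearest peak to its start site, at 4497 bp, was the C1qa promoter peak. For Aif1 it was a promoter peak of Prrc2a at 10595 bp, and for Tmem119 a distal peak assigned to Iscu at 15521 bp. No peak of any symbol overlapped the bodies of C1qb, C1qc, Aif1 or Tmem119. Signal outside peaks was not analysed here, so the missing peaks do not show that these promoters lack the marks.

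Sequences were read for the loci on which the results turn, from the GRCm38.p6 genome for peaks (the central 300 bp, forward strand) and from RefSeq promoters for genes (300 bases around the RefSeq start site, gene strand). The RefSeq start site need not be the one used for distances, and the RefSeq promoters of Cx3cr1 and P2ry12 do not include that one. They were searched on both strands for GAGGAA, the core of the PU.1 site, and for the longer GAGGAAGT, which contains it. RefSeq promoters matched 6 of the 10 genes, and those of C1qa, Csf1r, Tmem119 and Spi1 were not matched. GAGGAA was found in 3 of the 6 promoters (C1qb, C1qc and Aif1) and in 28.3% of 32851 promoters, and GAGGAAGT in that of C1qc alone and in 3.20% of promoters. Among the peak centres GAGGAA was found in 8 of 23, or 34.8%, beside 26.7% of all peaks, and GAGGAAGT in 1, or 4.35%, beside 2.04%. These 4 sequences are shown because they hold the only promoter peak, the 2 matches to the longer motif and the peak with the largest H3K27Ac change. Capitals mark GAGGAA or its reverse complement TTCCTC, and both matches here are on the reverse strand of the sequence as printed.
C1qa peak 1 centre, chr4:136898109-136898408, forward strand: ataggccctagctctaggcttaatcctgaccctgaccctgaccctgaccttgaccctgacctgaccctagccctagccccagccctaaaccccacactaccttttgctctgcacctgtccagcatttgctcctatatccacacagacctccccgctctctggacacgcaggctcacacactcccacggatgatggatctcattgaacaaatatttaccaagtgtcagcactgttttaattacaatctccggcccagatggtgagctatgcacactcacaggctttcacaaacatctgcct
C1qb peak 5 centre, chr4:136876845-136877144, forward strand: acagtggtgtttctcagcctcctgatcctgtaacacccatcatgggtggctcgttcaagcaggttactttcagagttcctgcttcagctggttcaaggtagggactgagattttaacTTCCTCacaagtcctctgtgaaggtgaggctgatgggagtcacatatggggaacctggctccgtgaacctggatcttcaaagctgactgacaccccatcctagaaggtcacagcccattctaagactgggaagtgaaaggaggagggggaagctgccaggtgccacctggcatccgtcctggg
C1qc promoter, chr4:136892865-136893164, reverse strand: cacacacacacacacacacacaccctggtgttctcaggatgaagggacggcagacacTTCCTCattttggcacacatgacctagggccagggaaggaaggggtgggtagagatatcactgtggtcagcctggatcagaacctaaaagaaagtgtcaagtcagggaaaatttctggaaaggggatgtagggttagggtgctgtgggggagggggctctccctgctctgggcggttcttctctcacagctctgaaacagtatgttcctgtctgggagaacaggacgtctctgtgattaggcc
Cx3cr1 peak 2 centre, chr9:120011102-120011401, forward strand: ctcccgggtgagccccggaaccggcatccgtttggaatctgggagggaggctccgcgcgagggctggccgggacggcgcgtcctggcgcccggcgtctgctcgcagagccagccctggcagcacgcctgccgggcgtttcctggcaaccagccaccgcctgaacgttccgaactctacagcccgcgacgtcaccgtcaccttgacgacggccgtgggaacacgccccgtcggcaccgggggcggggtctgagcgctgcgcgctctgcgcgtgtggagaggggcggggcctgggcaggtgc
The centre of the C1qa promoter peak had no match, and the motif in C1qb peak 5 lies in an intergenic region downstream of C1qb. The centre of Cx3cr1 peak 2 was 73.7% G and C, beside a median of 53.3% over the 23 centres and 50% over all peaks.

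The first comparison asked how the H3K18La signal of these genes differed between 5 mM and 25 mM glucose. A value per gene was taken as the mean RPKM over all its peaks, weighted by peak length, and tested with limma on log2(RPKM + 0.5), a scale that understates the change of weak genes. H3K18La rose at C1qa, C1qb and Cx3cr1, which were past an adjusted p of 0.05 among the 7 genes with a peak. That threshold was passed by 30.2% of all genes, with 7605 genes higher and 59 lower, so that 3 of 7 is a share near the background. All 3 calls ended when libraries were scaled to their reads in peaks, where the log2 changes were -0.11, -0.35 and -0.16, and when they were centred on their medians, where the changes were 0.47, 0.16 and 0.36.

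C1qa had the highest H3K18La level of the 7 genes at 25 mM. Its RPKM was 1.72, 1.84 and 0.844 in the libraries at 5 mM and 2.62, 3.76 and 4.25 at 25 mM, so the groups did not overlap. The means were 1.47 ± 0.545 (SD, n = 3) and 3.54 ± 0.834 (SD, n = 3), with a log2 change of 1.06 (SE 0.27, limma adjusted p = 0.0315). This was above the change of 71.1% of all genes.

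C1qb was lower than C1qa but more even. It read 1.10, 0.812 and 1.55 at 5 mM and 2.35, 2.07 and 2.27 at 25 mM, again with no overlap. Its mean went from 1.15 ± 0.372 (SD, n = 3) to 2.23 ± 0.146 (SD, n = 3), a log2 change of 0.75 (SE 0.20, limma adjusted p = 0.0375), close to the median of all genes.

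Cx3cr1 read 1.20, 0.735 and 1.50 RPKM at 5 mM and 3.62, 2.50 and 1.97 at 25 mM, and its groups too were separate. The means were 1.14 ± 0.384 (SD, n = 3) and 2.69 ± 0.841 (SD, n = 3), with a log2 change of 0.95 (SE 0.27, limma adjusted p = 0.0421). Since the peaks of Cx3cr1 lie nearer to other genes, this is a value of the region assigned to it.

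The 3 calls were near the threshold. With the replicate number as a block, none of them held (adjusted p = 0.0763, 0.0610 and 0.0742 for C1qa, C1qb and Cx3cr1 in limma), beside 24.8% of all genes called, although the numbers did not pair the libraries. Leaving out replicate 1 or 2 at 5 mM or replicate 2 at 25 mM left 0 of the 7 genes called, leaving out replicate 1 or 3 at 25 mM left 1, and leaving out replicate 3 at 5 mM left 2, while 20.4% to 25.6% of all genes were called in these fits. When whole reads were recovered from the RPKM values and tested with voom, 3 genes were called, beside 37.8% of all genes.

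The remaining genes were not past the threshold for H3K18La. Spi1 held 2 to 9 reads in a library at 5 mM and 5 to 10 at 25 mM. Its RPKM was 0.925, 0.847 and 0.718 against 1.24, 0.959 and 1.64, which do not overlap, with a log2 change of 0.41 (SE 0.24, limma adjusted p = 0.252) that was -0.19 when libraries were centred and 0.26 without replicate 3 at 25 mM. C3 held 1 to 3 reads per library at 5 mM and 3 to 6 at 25 mM. The pooled reads of C3 were 6 and 13, a ratio of 2.08 with a 95% counting interval of 0.739 to 6.68, the limma adjusted p was 0.311, and the log2 change of 0.56 became -0.03 when libraries were centred and 0.21 without replicate 1 at 25 mM. P2ry12 had 0, 1 and 1 reads at 5 mM and 3, 3 and 0 at 25 mM, all within the 3 reads that a count of 0 allows, so no change is given for it.

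Csf1r was the one gene whose mean H3K18La was lower at 25 mM. It read 0.910, 0.926 and 1.65 at 5 mM and 0.651, 1.18 and 0.755 at 25 mM, so the groups overlapped. Csf1r held 6 to 15 reads in a library at 5 mM and 4 to 15 at 25 mM. The log2 change was -0.28 with a 95% interval of -0.99 to 0.44 (limma adjusted p = 0.506), and its difference from the median of all genes was not tested. It was lower than the change of all but 8.18% of genes, and it stayed negative at -0.87 when libraries were centred and at -1.22 when scaled to reads in peaks. Leaving out 1 library moved it between -0.44 and -0.077, the latter without replicate 3 at 5 mM, the library at 1.65. Counted over the 7 genes, every library at 25 mM was above every library at 5 mM in 5, beside 46.6% of all genes, and below in 0, beside 0.906%.

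**Figure D2:**
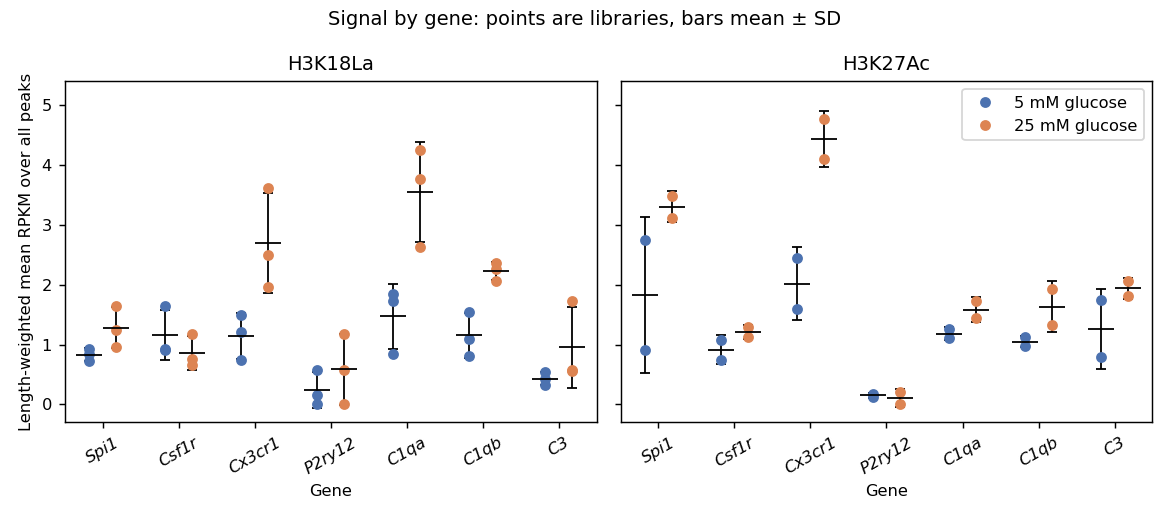
Length-weighted mean RPKM over all peaks of each gene, for H3K18La (left, 3 libraries per glucose level) and H3K27Ac (right, 2 libraries per glucose level). Points are libraries, blue at 5 mM and orange at 25 mM, and bars are the mean and SD. C1qa, C1qb, Cx3cr1, Spi1 and C3 separate by glucose for H3K18La, Csf1r and P2ry12 overlap, and Cx3cr1 has the highest H3K27Ac.

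H3K27Ac was compared in the same way, with 2 libraries per glucose level. None of the 7 genes was called, and neither was any gene of the table (0% of 25400). At an unadjusted limma p under 0.05 were 1 of the 7 and 11638 (45.8%) of all genes. By voom on the recovered reads, Cx3cr1 and Spi1 were called, beside 44% of all genes. Cx3cr1 had the highest level. It read 1.59 and 2.45 RPKM at 5 mM and 4.76 and 4.10 at 25 mM, with means of 2.02 ± 0.613 (SD, n = 2) and 4.43 ± 0.468 (SD, n = 2). The log2 change was 0.99 (SE 0.30, limma adjusted p = 0.0698), and it was -0.10 when scaled to the reads in peaks.

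Spi1 varied between the H3K27Ac replicates at 5 mM. It read 0.902 and 2.75 there and 3.12 and 3.48 at 25 mM, so that 1 library lay close to the other group. Its log2 change was 0.83 (SE 0.45, limma adjusted p = 0.207), 0.22 without replicate 1 at 5 mM, 1.44 without replicate 2, and -0.19 when scaled to the reads in peaks. The C1q genes were lower for this mark. C1qa read 1.10 and 1.26 against 1.73 and 1.44, a log2 change of 0.31 (SE 0.25), and C1qb 1.12 and 0.982 against 1.93 and 1.33, a log2 change of 0.45 (SE 0.28) that was 0.24 without replicate 1 at 25 mM. Both changes were below the median of all genes and turned negative under either other scaling (-0.28 and -0.14 when centred, -0.63 and -0.49 when scaled to the reads in peaks).

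C3 read 0.787 and 1.74 at 5 mM and 1.81 and 2.06 at 25 mM, and Csf1r 0.740 and 1.08 against 1.29 and 1.12. Their H3K27Ac log2 changes were 0.52 (SE 0.35) and 0.28 (SE 0.26), and -0.07 and -0.31 when centred. Without replicate 1 at 5 mM, the lower library for both genes, they were 0.12 and 0.11, and without replicate 2 they were 0.92 and 0.46. P2ry12 held 0 to 2 reads in every H3K27Ac library. Groups did not overlap, with 25 mM higher, at 6 of the 7 genes, beside 65.6% of all genes, and with 25 mM lower at 0, beside 5.75%. With 2 libraries against 2 such separation is common, and no test was made of the difference between these shares.

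**Figure D3:**
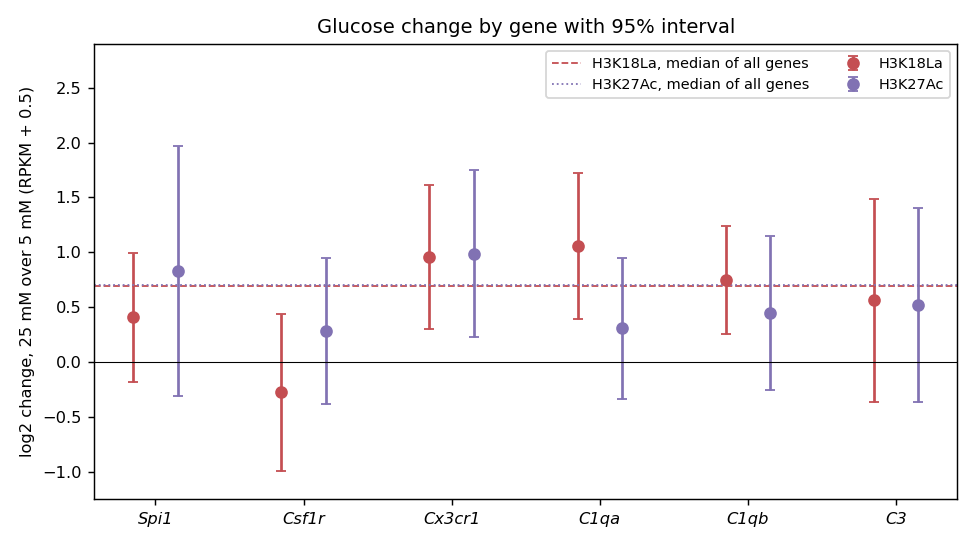
Log2 change in RPKM + 0.5 from 5 mM to 25 mM by gene, with 95% intervals from limma, for H3K18La (red) and H3K27Ac (purple). The dashed and dotted lines are the medians of all genes, 0.69 and 0.70, which nearly coincide. P2ry12 is left out because no library held more than 3 of its reads. The H3K18La value of Csf1r lies at -0.28, and those of C1qa, C1qb and Cx3cr1 lie above the median line, although all 3 were negative when libraries were scaled to their reads in peaks.

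Medians of the microglia and complement genes lay near or below those of the whole table. Over the 6 genes with a change to report, the median H3K18La log2 change was 0.65 against 0.69 for all genes, and the median H3K27Ac change was 0.48 against 0.70. These medians of the 6 genes were 0.06 and -0.10 when libraries were centred and -0.29 and -0.45 when scaled to reads in peaks. Of 26 other microglia genes with a peak, 11 rose in H3K18La and none fell, with a median log2 change of 0.83. The 11 included Mef2c, Tgfbr1 and Runx1, which are not confined to microglia. Among all genes 29.9% were called higher, so that rises outnumbered falls throughout the table, and this share stands beside every count of risen genes that follows. Trem2, a receptor of microglia for lipids, went from 2.87 ± 0.827 (SD, n = 3) to 10.6 ± 3.09 (SD, n = 3), a log2 change of 1.71 (limma adjusted p = 0.00520). Fcer1g and Tyrobp, signalling adaptors of myeloid receptors, changed by 1.40 and 1.35 (limma adjusted p = 0.00744 and 0.00426). Trem2, Fcer1g and Tyrobp had no promoter peak, and how near their peaks lie to other genes was not examined. Of 19 other complement genes, 5 rose and none fell, with a median of 0.21. The largest of these were Vtn, an inhibitor of the terminal complex that is also a matrix protein, at 1.43, Clu, another such inhibitor that Muller glia also express, at 1.38, and Serping1, the C1 inhibitor, at 1.11 (limma adjusted p = 0.0206, 0.00106 and 0.0474). The H3K27Ac of Vtn at 25 mM was 51.2 ± 11.1 RPKM (SD, n = 2), while the medians of 17 rod genes there were 49.6 and 30.2 by library. Which cells carry the signal of Vtn was not tested. Of the 9 signalling genes 4 rose (Csf1, Tgfb2, Cd47 and Sirpa, of which Sirpa is a receptor), with a median of 0.75.

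The lists of other cells moved as well. Beside the 29.9% of all genes, 16 of 17 rod genes rose in H3K18La, with a median of 2.00, and among 18 Muller glia genes 8 rose, with a median of 0.84. Of 11 genes of blood cells, border macrophages and vessels with a peak, 1 rose (Cd79a, a B cell gene), and their median was 0.56. The summed H3K18La of those 11 was 9.94 to 10.7 RPKM at 5 mM and 13.4 to 17.5 at 25 mM, and Cd163, Pf4, Ms4a7, S100a8, S100a9, Cd3e and Ms4a1 had no peak. Which of these calls remained depended on the scaling. When libraries were centred, 2 of the 26 other microglia genes, 1 of the 19 other complement genes, 2 of the 9 signalling genes, 0 of the 11 blood and border genes, 3 of the 18 Muller glia genes and 15 of the 17 rod genes were called higher. In that fit 10.6% of all genes were called and 10% were called higher, so that the other microglia and complement genes lay below this share. When scaled to reads in peaks no gene of any list was called, and neither was any gene of the table. The H3K18La medians turned as well, since that of the other complement genes was -0.39 when centred and -0.55 when scaled to reads in peaks, and that of the other microglia genes was 0.23 and -0.16. The part of these other cells in the values of the 10 genes was not tested. For H3K27Ac no gene of any list was called, while 6 of the other microglia genes and 17 of the rod genes were at an unadjusted limma p under 0.05, beside 45.8% of all genes. When the H3K27Ac libraries were centred, 6.96% of all genes were called. These included 9 of the rod genes, all higher, and Cldn5 and Tek of vessels, Entpd1 and the Muller glia gene Abca8a, all lower. Scaling to reads in peaks left none called.

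Peak by peak, 0 of the 23 were called for H3K18La, beside 17% of all peaks, and 7 were at an unadjusted limma p under 0.05, beside 31.7% of all peaks. By voom 4 were called, beside 25.8% of all peaks, and these were C1qa peak 2, Cx3cr1 peaks 2 and 3, which were higher, and C1qa peak 5, which was lower, beside 0.182% of all peaks called lower. In a fit that left out every peak averaging under 1 RPKM, 4 of 15 were called (C1qa peaks 2 and 3 and Cx3cr1 peaks 2 and 3), beside 37.4% of all peaks in that fit. C1qa peak 3 entered that fit through its level at 25 mM, since its mean was 0.485 at 5 mM and 2.31 at 25 mM. Counted over both directions, the share among the peaks of the microglia and complement genes was below that of all peaks in each of these fits. Every library at 25 mM was above every library at 5 mM at 8 peaks, beside 36.6% of all, and below at 1, beside 0.821%.

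The strongest H3K18La signal was at C1qa peak 2 (chr4:136903884-136906004), an intergenic peak 5081 bp upstream of C1qa. It read 2.91, 2.64 and 1.04 at 5 mM and 4.56, 6.61 and 6.52 at 25 mM, with no overlap. Its log2 change was 1.31 (SE 0.36, limma adjusted p = 0.0511), and its pooled reads were 45 and 117, a ratio of 2.50 with a 95% counting interval of 1.76 to 3.61 (voom adjusted p = 0.000479). The change was 0.68 when libraries were centred (limma adjusted p = 0.348) and 0.063 when scaled to reads in peaks (limma adjusted p = 0.978). The promoter peak of C1qa was weaker. It read 1.02, 1.66 and 0.528 at 5 mM and 2.19, 1.94 and 3.87 at 25 mM, a log2 change of 1.03 (SE 0.42, limma adjusted p = 0.146) that was 0.40 when centred and -0.053 when scaled to reads in peaks.

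C1qa peak 3 (chr4:136912450-136913040), 13647 bp upstream, had 1, 2 and 0 reads at 5 mM and 2, 7 and 4 at 25 mM, a ratio of 4.17 with a 95% counting interval of 1.14 to 22.8. Its log2 change was 1.60 (SE 0.52), and it was not called (limma adjusted p = 0.0807). C1qa peak 5 (chr4:136925945-136926334), 27142 bp upstream, went the other way. It held 1, 5 and 1 reads at 5 mM and 0, 1 and 0 at 25 mM, a ratio of 0.137 with a 95% counting interval of 0.00305 to 1.07. Its log2 change of -1.81 was lower than that of all but 0.123% of peaks, and its limma adjusted p was 0.0651. The value rests on 8 reads in all.

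The largest positive H3K18La change of the 23 was at Cx3cr1 peak 2, with 2.17, 1.11 and 0 RPKM at 5 mM and 4.67, 3.67 and 2.71 at 25 mM, a log2 change of 1.67 (SE 0.63, limma adjusted p = 0.122). Cx3cr1 peak 3 read 1.62, 0.922 and 0.503 against 4.17, 2.85 and 2.53, a log2 change of 1.32 (SE 0.39, limma adjusted p = 0.0607). The changes of peaks 2 and 3 were 1.04 and 0.69 when libraries were centred and 0.67 and 0.22 when scaled to reads in peaks. In Cx3cr1 peak 4 a single library at 5 mM, replicate 3, stood at 5.78 RPKM from 6 reads while the others read 0.620 and 0, and the groups overlapped. C1qb peak 1 (chr4:136861413-136862903), 23284 bp downstream of the C1qb start site, showed the same replicate at 3.95 beside 1.27 and 1.29. Its log2 change was 0.68 (SE 0.41, limma adjusted p = 0.304), and without that replicate it was 1.12 with a limma adjusted p of 0.0414.

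The other peaks were described by their ranges. The 5 intergenic peaks of C1qb had H3K18La log2 changes of 0.52 to 1.30, none of them called, and peaks 3 and 5 separated by glucose. Peaks 1, 2 and 3 were at -0.52, -0.47 and -0.19 when scaled to reads in peaks. Peak 5, which holds the longer PU.1 motif, read 1.23, 0.750 and 0 at 5 mM and 1.98, 1.59 and 2.62 at 25 mM, from 5 and 14 pooled reads (limma adjusted p = 0.169). The 3 peaks of Csf1r had changes of -0.21, 0.04 and -0.42, and each overlapped between glucose levels. The strongest of them, Csf1r peak 2, read 1.01, 0.823 and 3.14 against 1.08, 2.10 and 1.44, from no more than 4 reads in a library. Spi1 peaks 1 to 3 had changes of 0.88, 0.54 and 0.05, all with overlap. C3 peak 2 separated on 3 and 9 pooled reads, a ratio of 2.88 with a 95% counting interval of 0.720 to 16.6, and C3 peak 1 in the exon had 1 or 2 reads in every H3K18La library. Of the 22 peaks other than that of P2ry12, 19 had a positive H3K18La change, and 7 of these were negative when libraries were centred and 10 when they were scaled to reads in peaks.

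For H3K27Ac, 0 of the 23 peaks were called, as was the case for the whole table (0%), where 31013 peaks (28.6%) were at an unadjusted limma p under 0.05. Cx3cr1 peak 2 was the one of the 23 at an unadjusted p under 0.05. It read 1.33 and 2.40 at 5 mM and 10.2 and 5.71 at 25 mM, from 18 and 101 pooled reads, with a log2 change of 1.83 (SE 0.42, limma adjusted p = 0.125) that exceeded that of 96.7% of all peaks. It was also the single peak called by voom (voom adjusted p = 0.00197), beside 21.2% of all peaks. Spi1 peak 2 read 0.770 and 2.14 against 2.78 and 4.26, a log2 change of 1.11 (SE 0.49, limma adjusted p = 0.214). At C1qa peak 2, the strongest for H3K18La, H3K27Ac read 1.64 and 1.75 against 1.97 and 2.10, a log2 change of 0.21 with a 95% interval of -0.63 to 1.05. Of 20 peaks with a positive H3K27Ac change, 7 were negative when libraries were centred and 15 when scaled to reads in peaks. Groups were separate with 25 mM higher at 13 of the 23 peaks, beside 53% of all peaks, and lower at 0, beside 6.37%.

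**Figure D4:**
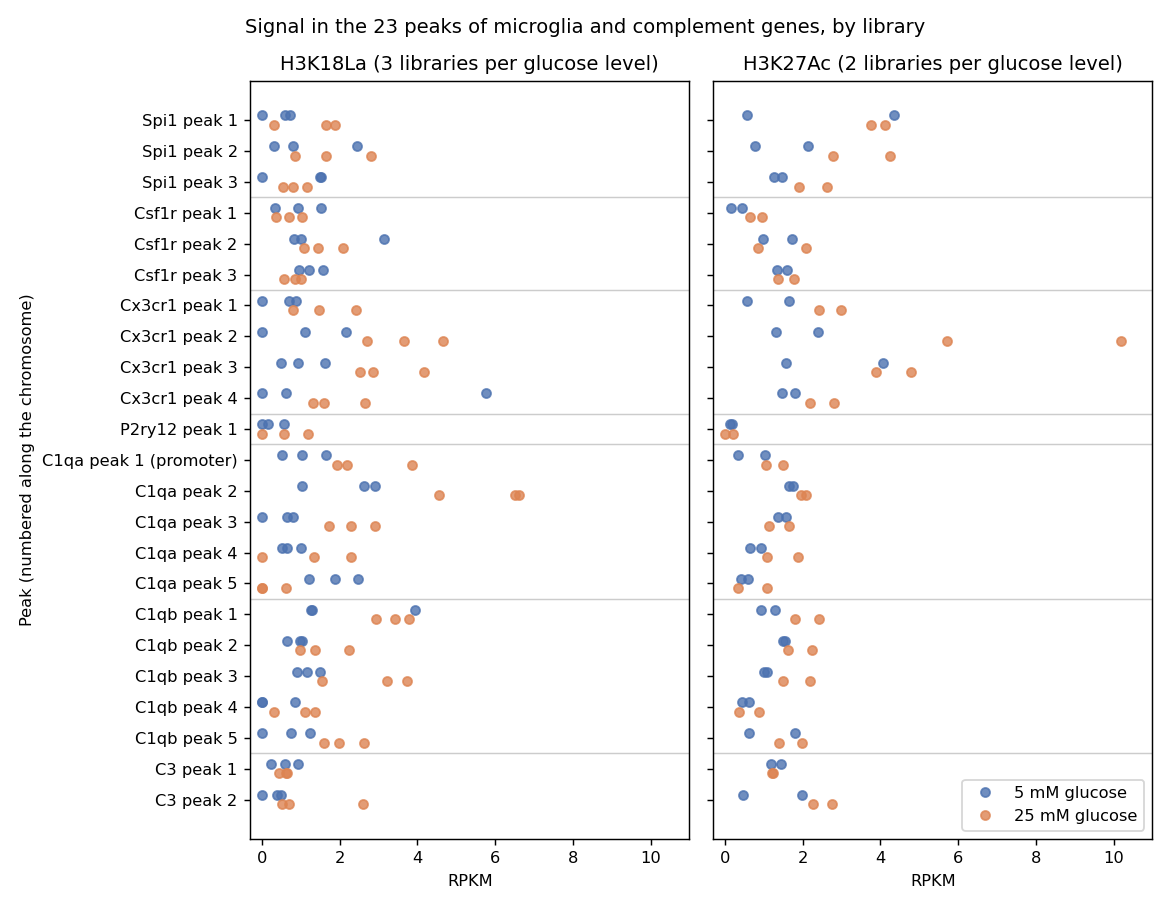
RPKM of each of the 23 peaks in every library, for H3K18La (left) and H3K27Ac (right), with points in blue at 5 mM and in orange at 25 mM and horizontal lines between genes. C1qa peak 2 stands out for H3K18La, reaching 6.61, and Cx3cr1 peak 2 for H3K27Ac, reaching 10.2, while the P2ry12 peak is near 0 throughout.

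Whether glucose changed the 2 marks differently at a peak was tested as an interaction over all 10 libraries. It was called at 0 of the 23 peaks and at 0% of all peaks, and by voom at 0 of the 23. At an unadjusted limma p under 0.05 were 2 of the 23, beside 5182 (4.79%) of all peaks. These 2 were C1qa peak 3, where the H3K27Ac change was lower than the H3K18La change by 1.67 on the log2 scale (difference -1.67, 95% interval -3.29 to -0.05), and C1qa peak 5, where it was higher by 2.02 (95% interval 0.29 to 3.74). Both had a limma adjusted p of 0.945.

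The levels of the marks themselves were set side by side at each glucose level, as a description made after the data were seen and with the caution that RPKM of different antibodies share no common scale. The regions also match in number a set called for H3K18La, so sites with H3K27Ac alone may be missing from this comparison. At 25 mM the median over all genes was 1.51 for H3K18La and 2.55 for H3K27Ac. C1qa, at 3.54 and 1.58, stood above the first median and below the second. C1qb did the same, at 2.23 and 1.63. Cx3cr1 (2.69 and 4.43) was above both, Spi1 (1.28 and 3.30) was above the second only, and C3 and Csf1r were below both. By peak at 25 mM, every H3K18La library was above every H3K27Ac library at 4 of the 23, beside 12.7% of all peaks, and these were C1qb peak 1 and C1qa peaks 1, 2 and 3. The opposite held at 5 of the 23, beside 35.1%, among them Spi1 peaks 1 and 3 and Cx3cr1 peak 2. At 5 mM the counts were 1 of 23, beside 4.12%, and 3 of 23, beside 35.1%.

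The mean level of each gene over the 6 H3K18La and 4 H3K27Ac libraries together, a mixture of the marks, placed Cx3cr1 first, at a mean of 2.44 RPKM, followed by C1qa at 2.06, Spi1 at 1.66, C1qb at 1.55, C3 at 1.05, Csf1r at 1.03 and P2ry12 at 0.298. Cx3cr1 and C1qa were above the median of all genes, 1.70, standing at percentiles 61.5 and 55.9, and P2ry12 was at percentile 4.80. The order of the first pair turned with the mark, since C1qa led at 25 mM for H3K18La (3.54 against 2.69) and Cx3cr1 for H3K27Ac (4.43 against 1.58). Neighbours in the order often overlapped. In H3K18La at 25 mM, C1qa overlapped Cx3cr1 and Cx3cr1 overlapped C1qb, while C1qa was above C1qb in every library. Spi1, C3 and Csf1r overlapped each other there and lay below the C1q genes. At 5 mM the H3K18La ranges of C1qa, Csf1r, C1qb, Cx3cr1 and Spi1 overlapped from each to the next, with C3 below them. In H3K27Ac at 25 mM, Cx3cr1 was above Spi1 and Spi1 above the rest with no overlap, and C3 overlapped C1qb, which overlapped C1qa. Of the 23 peaks, 8 had a mean RPKM above the median of all peaks.

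The C1q genes lie next to each other on chromosome 4, in the order C1qb, C1qc and C1qa, all on the reverse strand, between Ephb2 and Epha8. The 10 peaks assigned to C1qa and C1qb were set beside the 5 peaks on either side, chosen after the data were seen. The median H3K18La log2 change was 0.94 over the 10 peaks, 0.82 over the 5 on the Ephb2 side and 1.08 over the 5 on the Epha8 side. The nearest peak on the Ephb2 side was 0.188 kb from C1qb peak 1, and that on the Epha8 side was 5.42 kb from C1qa peak 5. At 25 mM the median H3K18La was 2.18 RPKM over the C1q peaks, 3.95 on the Ephb2 side and 3.77 on the Epha8 side, and the medians of H3K27Ac were 1.59, 2.96 and 2.69. By their medians, the C1q peaks were the lower ones of this stretch for both marks. Within it, 1 peak on either side was called for H3K18La and none of the 10 C1q peaks was.

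**Figure D5:**
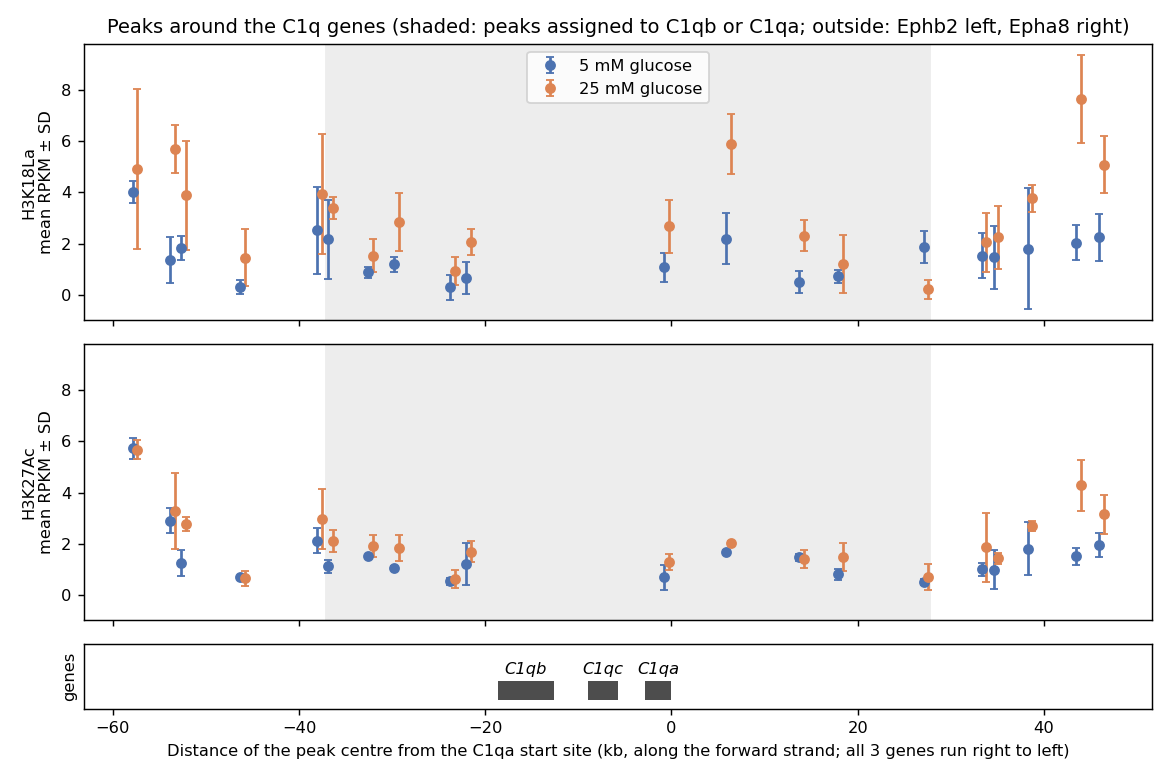
Mean RPKM and SD (3 libraries per group for H3K18La, 2 for H3K27Ac) of the 10 peaks assigned to C1qb or C1qa (shaded) and of 5 peaks on either side, against distance in kb from the C1qa start site, for H3K18La (top) and H3K27Ac (middle), in blue at 5 mM and orange at 25 mM. Bars at the bottom are the genes C1qb, C1qc and C1qa. The median H3K18La log2 change of the shaded peaks, 0.94, lies between those of the flanks, 0.82 and 1.08.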

How the data were processed

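Retinal explants had been profiled by CUT&Tag in 10 libraries. The authors aligned reads to GRCm38 with nf-core/cutandrun, called peaks with MACS, excluded blacklisted regions, annotated peaks with ChIPseeker 1.34.1 (promoter, -1000 to 500 bp) and counted reads over consensus peaks with csaw, and they deposited RPKM values. Their deposited table of H3K18La fold changes and p-values from edgeR 3.40.2 is their own comparison and was not used. The regions match in number the study's merged H3K18La consensus peaks of developing retina. The values were whole multiples of 1 read (100% within 0.01 read), so reads and library totals were recovered. Whether normalization factors are part of those totals is not given in the sources used here.

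Groups came from the labels. Peaks (108253) and genes (25400 symbols) were fitted with limma 3.58.1 (R 4.3.3, lmFit, eBayes with trend) on log2(RPKM + 0.5), each mark alone, with an interaction over all 10 libraries, and Benjamini-Hochberg adjustment over all features at 0.05. The study's count model was not used because the unit is RPKM. Called means an adjusted p under 0.05. The fits were tested on simulated data. Counting intervals are exact, at 95%. Positions and exons came from GENCODE for GRCm38, promoter sequences from RefSeq (GRCm38.p6). Python 3.11.15, pandas 2.3.3 and scipy 1.17.1 were used.

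The members and all lists were chosen with earlier results of these data known. The genes and peaks named were the 10 members, each one's strongest and promoter peak, and, among other microglia and complement genes past the threshold, the 3 largest rises and falls per mark; further member peaks were named after their values were seen. Other settings, each tried where it applied, were a pseudocount of 0.1 or 1, only features above a mean RPKM of 1, centring, scaling to reads in peaks, voom, a replicate block, leaving out each library, for each mark alone a spread shared over marks, and for genes promoter or non-promoter peaks alone.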

Additional observations from a re-analysis of the deposited data

How the results depend on the processing

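Most of the 23 peaks held under 30 reads in every library, which limits the values of single peaks, and the scaling of the libraries set the direction of many changes. The number of the 7 genes called for H3K18La, 3, stayed at 3 under other pseudocounts, the minimum RPKM, voom, the shared spread and non-promoter peaks alone, and was 0 when centred, when scaled to reads in peaks, with the replicate block and with promoter peaks alone (1 gene tested), and 0 to 2 when a library was left out. Replicate numbers did not pair the libraries (correlations of same-numbered deviations -0.004 to 0.02), and with the block the adjusted p of C1qa, C1qb and Cx3cr1 was 0.0763, 0.0610 and 0.0742. For H3K27Ac 0 genes became 2 with the minimum RPKM (62.5% of all genes in that fit) and with voom (44%). Of the 23 peaks, 0 called for H3K18La became 1 with a pseudocount of 1 (18.3% of all peaks). With the minimum RPKM 4 were called (37.4%, with C1qa peak 3 passing that minimum only through 25 mM). When centred 1 was called, lower, beside 4.06% of all peaks called in either direction and 0.188% called lower. By voom 4 were called (25.8%), with the shared spread 5 (25.4%), and without a library 0 to 1. For H3K27Ac 0 peaks became 2 with the minimum RPKM (34.1%) and 1 by voom (21.2%). The interaction stayed at 0 throughout. Leaving out a H3K27Ac library leaves 1 in its group, which is assumed to vary like the others. By gene, the log2 changes that turned negative were, for H3K18La centred, C3 -0.031 and Spi1 -0.19, for H3K18La scaled to reads in peaks, C1qa -0.11, C1qb -0.35, C3 -0.23, Cx3cr1 -0.16 and Spi1 -0.56, for H3K27Ac centred, C1qa -0.28, C1qb -0.14, C3 -0.066 and Csf1r -0.31, and for H3K27Ac scaled to reads in peaks, C1qa -0.63, C1qb -0.49, C3 -0.41, Csf1r -0.57, Cx3cr1 -0.10 and Spi1 -0.19. By peak, of 19 positive H3K18La changes 7 turned negative when centred (-0.62 to -0.035) and 10 when scaled to reads in peaks (-1.01 to -0.053), and of 20 for H3K27Ac 7 (-0.39 to -0.0053) and 15 (-0.88 to -0.027). Over every setting tried, those that leave out a library included, a peak changed sign 34 times for H3K18La and 35 times for H3K27Ac. The cause of these turns and lost calls was not tested.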
